A study of Mus musculus with 15 samples.

Results

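Lungs of mice given mesenchymal stem cells (MSCs) early in a house dust mite (HDM) challenge were compared with lungs of mice given HDM alone. The comparison uses 10 of the 15 libraries analysed, 5 per group, chosen by the treatment each label gives, and it was fitted without the 5 libraries of mice given MSCs late. All mice were wild-type C57BL/6 females. Each received 10 µg of HDM intranasally, 5 days a week for 2 weeks, and lung lobes were taken on day 15. The early group, labelled long-term, also received MSCs from adipose tissue through the nose on day 6, which is 9 days before the lungs were taken, while the HDM group received no cells. Neither the species and donor of the MSCs nor any vehicle given to the HDM group is stated in the labels. Saline-treated mice were not analysed here, so each difference is relative to HDM-challenged lung. Total RNA was sequenced, and total counts ranged from 29635897 to 44201637 in HDM and from 31762964 to 41762167 in the long-term group.

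HDM is a common inhaled allergen that drives airway inflammation with eosinophils, mucus and allergen-specific antibodies in mice. B cells enter such lungs, gather with T cells in follicle-like aggregates and can become plasma cells that secrete antibody. Their antigen receptor is a membrane antibody that signals through the Cd79a and Cd79b chains. MSCs are stromal cells studied for the mediators with which they act on immune cells.

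HDM replicates 1 and 2 stood apart from the other 8 libraries. The first principal component, with 33.5% of the variance of log2 CPM (counts scaled to a common library size), placed them at -45.3 and -57.5 and the others between -2.98 and 25.1. The median gene had a standard deviation of 0.225 log2 units among the HDM libraries, 0.125 among HDM replicates 3 to 5 and 0.122 in the long-term group. Results are therefore also given without HDM replicates 1 and 2. Defining markers of lung epithelium, endothelium, fibroblasts and leukocytes were present in all 10 libraries, from Foxj1 of ciliated cells (44.3 to 98.3 CPM) to Sftpc of type 2 alveolar cells (5322 to 8964 CPM). Acta1 of skeletal muscle, Rag1 of thymocytes and Adipoq of adipocytes stayed at or below 1.59 CPM, whereas Myh6 of pulmonary vein muscle ranged from 25.5 to 275 CPM. The p-values set the difference between groups against the spread between these libraries. The labels do not say how the mice were housed or grouped. Any effect of housing shared within a group therefore cannot be told apart from treatment.

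Early MSC treatment was followed by a small set of mostly lower transcripts. With edgeR's quasi-likelihood test and Benjamini-Hochberg adjustment, 36 of 18968 tested genes passed an adjusted p of 0.05, which is 0.19% of them. Of these, 33 fell (0.174%) and 3 rose (0.0158%), 31 were protein-coding and 18 differed by at least 1.5-fold. The genes that fell included B-cell genes, both mitochondrial ribosomal RNAs and the chemokine Ccl28. The genes that rose were Aldh1a3, Sgcd and the non-coding transcript Gm12940. Called changes were mostly moderate: their median size was 0.59 log2 units, and the range ran from -1.87 to 0.93. The median over all tested genes was 0.02.

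The groups did not overlap for any of the 36 genes, a description that also held for 406 genes (2.14%) on the higher side and 636 (3.35%) on the lower side among all tested. At an unadjusted p under 0.05, 1500 genes lay higher (7.91%) and 1898 lower (10%). These shares are the background for the counts within gene groups below. The number of calls rested on single libraries. It was 0 without HDM replicate 1, HDM replicate 4, long-term replicate 1 or long-term replicate 3. It was 5 without HDM replicate 2, 7 without HDM replicate 5, 2 without long-term replicate 2, 5 without long-term replicate 4 and 3 without long-term replicate 5. Without HDM replicate 3 it was 598, and without HDM replicates 1 and 2 together it was 279. All 36 genes kept their direction in each of these fits and passed both without HDM replicate 3 and without HDM replicates 1 and 2, and their highest adjusted p in any fit without a single library was 0.158. HDM replicate 3 also decided near misses: of the named genes that missed the test with all libraries, 41 passed without it, among them Tagln, Tpm2, C1s1, Fbp1, Per3, Csf2, Lcn2, Cr2, Ifit3 and Retnlg described below.

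**Figure D1:**
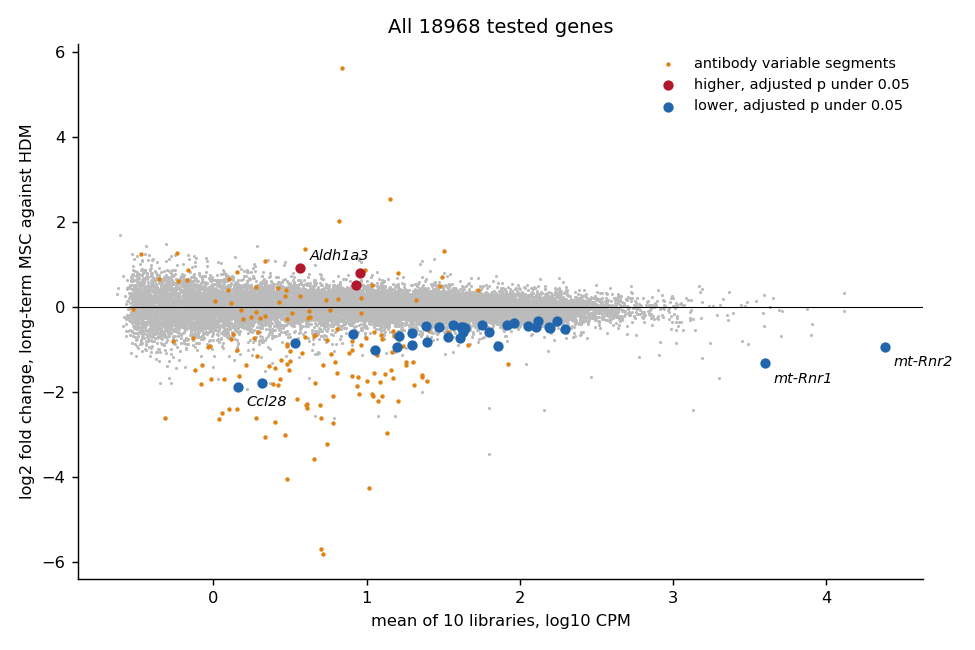
Log2 fold change of the long-term group against HDM (y axis) for each of 18968 tested genes against its mean over 10 libraries in log10 CPM (x axis). Blue and red points are the 33 lower and 3 higher genes past an adjusted p of 0.05, orange points are antibody variable segments, and grey points are all others; the widest changes belong to variable segments, none of which passed.

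B-cell transcripts were lower after early MSCs. Of 14 listed B-cell genes, all of them tested, every one lay below 0, 4 fell past the test (Cd79b, Fcrla, Spib and Fcmr) and 13 had an unadjusted p under 0.05, where the background on the lower side was 10%. Their median log2 fold change was -0.60, and it was -0.50 with 6 genes called without HDM replicates 1 and 2. The summed CPM of the list was 781, 849, 606, 663 and 675 in HDM and 460.4, 481, 473, 425 and 555 in the long-term group, so that the groups did not overlap. In whole lung, fewer B cells and less of these RNAs per B cell cannot be told apart. The list was drawn up with earlier results of these data known, so its direction is not independent evidence.

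Cd79b (ENSMUSG00000040592, GRCm38 chromosome 11, 106311341 to 106314762, minus strand) encodes the Ig-beta chain that carries signals from the antigen receptor, and it had the smallest p of all genes. Its level was 76.2, 82.2, 72.9, 75.7 and 72.4 CPM in HDM replicates 1 to 5 and 51.2, 48.6, 53.3, 44.6 and 53.7 CPM in the long-term libraries. The lowest HDM library exceeded the highest long-term library by a wide margin, and HDM replicates 1 and 2 were close to the other HDM libraries. The log2 fold change of Cd79b was -0.59 (SE 0.07, adjusted p = 0.0218), a decrease from 75.9 ± 3.90 to 50.3 ± 3.77 CPM (mean ± SD, n = 5 each). It passed in 5 of the 10 fits that left out a library, and its highest adjusted p there was 0.0786.

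Fcrla (ENSMUSG00000038421, GRCm38 chromosome 1, 170917576 to 170927583, minus strand), an intracellular Fc receptor-like protein of B cells, was at 22.9, 26.0, 18, 18.4 and 18.4 CPM in HDM. It was at 9.93, 9.83, 12.5, 10.5 and 11.9 CPM in the long-term group, so every long-term library was below every HDM library. The log2 fold change was -0.93 (SE 0.12, adjusted p = 0.0275), and -0.74 without HDM replicates 1 and 2, which were its highest HDM libraries. Fcmr, the Fc receptor for IgM, showed the same 2 libraries on top, at 56.6 and 61.1 CPM against 43.6 to 46.0 CPM in the other HDM libraries and 24.1 to 37.6 CPM in the long-term group. Its change was -0.72 (SE 0.13, adjusted p = 0.0493), and -0.55 without those 2 libraries.

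The transcription factors of the B lineage that passed were Spib and Pou2f2. Spib, an Ets-family factor of B cells and plasmacytoid dendritic cells, was at 39.8, 39.5, 43.6, 44.2 and 42.1 CPM in HDM and at 27.9, 24.4, 25.3, 20.2 and 31.3 CPM in the long-term group. HDM replicates 1 and 2 were its lowest HDM libraries, and it changed by -0.70 with them (SE 0.10, adjusted p = 0.0352) and by -0.74 without them. Pou2f2 encodes Oct-2, which binds the octamer element of antibody gene promoters. Pou2f2 was at 27.9, 33.3, 21.3, 22.6 and 23 CPM in HDM. In the long-term group it was at 13.7, 14.4, 13.1, 11.7 and 16.4 CPM, again without overlap. Its change was -0.89 (SE 0.13, adjusted p = 0.0352), and -0.69 without HDM replicates 1 and 2, its highest libraries. Pax5 and Ebf1, the factors that fix B-cell identity, had log2 fold changes of -0.83 and -0.51 and did not pass. Nor did Ms4a1, which encodes CD20, at -0.70, or Cd79a at -0.51. Cd22, an inhibitory receptor of B cells, was at 103, 124, 68.2, 96.8 and 101 CPM in HDM and at 59.8, 62.0, 57.1, 60.0 and 68.6 CPM in the long-term group. HDM replicate 3 lay just inside the long-term range, and the log2 fold change of -0.68 had an adjusted p of 0.0566 with it and 0.00524 without it.

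Receptors that guide or activate B cells made up a further group of called genes. Cxcr5, the receptor that leads B cells and helper T cells into follicles, was at 22.9, 25.1, 23.4, 24.0 and 24.3 CPM in HDM and at 15.2, 14.9, 16.5, 13.8 and 18.3 CPM in the long-term group. It was the tightest of these genes in HDM, and its log2 fold change was -0.60 both with and without HDM replicates 1 and 2 (SE 0.09, adjusted p = 0.0291 with all libraries). Ccr6, a chemokine receptor of B cells and IL-17-producing T cells, was at 16.3, 20.1, 11.6, 13.8 and 14 CPM in HDM and at 8.22, 8.52, 5.52, 7.96 and 7.45 CPM in the long-term group. That amounted to a log2 fold change of -1.01 (SE 0.16, adjusted p = 0.0352), so that its level fell by 50.3%. For Ccr6 the change was -0.80 without HDM replicates 1 and 2, its highest libraries. Cd180, a Toll-like receptor homologue of B cells, changed by -0.83 and Tlr9, the sensor of unmethylated CpG DNA in B cells and dendritic cells, by -0.68 (adjusted p = 0.041 for both). Tlr9 was at 22.5, 22.6, 18, 17.9 and 19.7 CPM in HDM and at 15.0, 12.8, 10.9, 10.9 and 13.2 CPM in the long-term group, so that the groups were apart and HDM replicates 1 and 2 highest. Without HDM replicates 1 and 2 these were -0.57 and -0.56, with both still past the test.

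**Figure D2:**
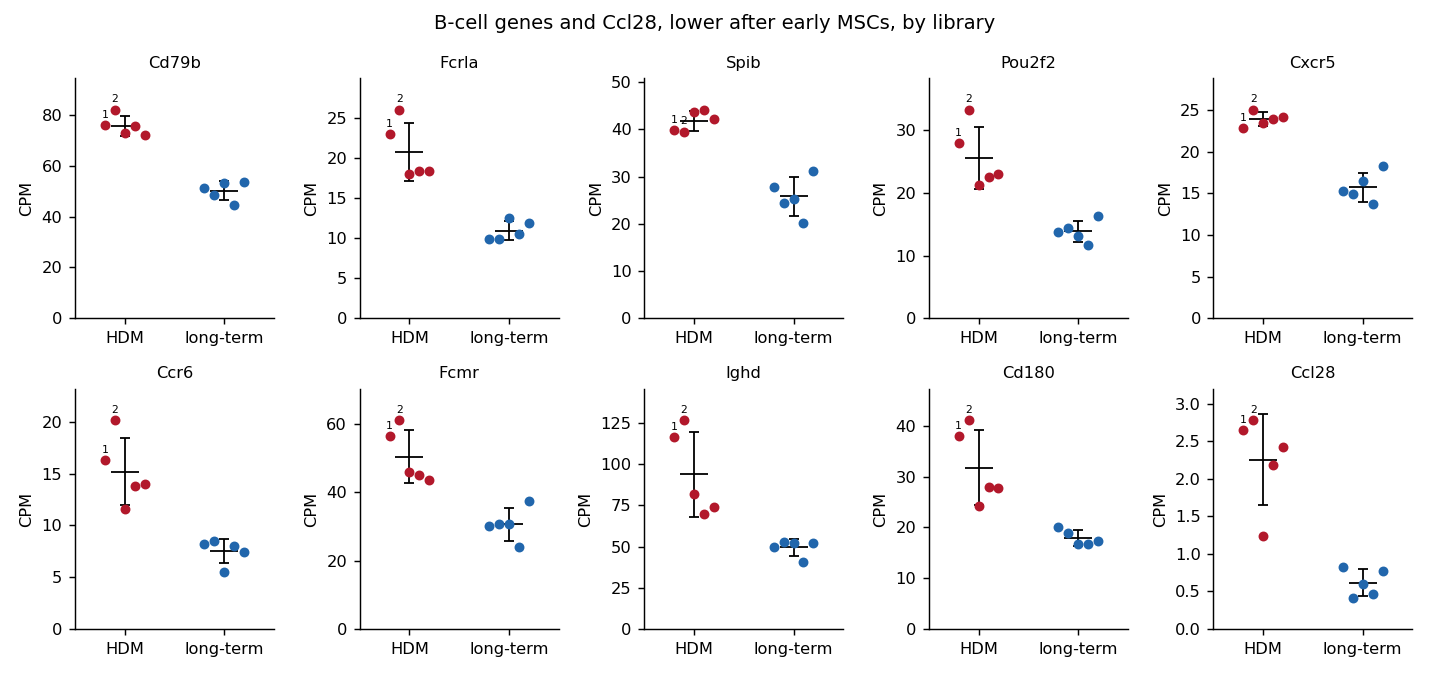
Level in CPM (y axes, from 0) of 10 genes in each HDM (red) and long-term (blue) library, with mean and SD in black and HDM replicates 1 and 2 numbered. In every panel all 5 long-term libraries lie below all 5 HDM libraries. In all panels but Spib and Cxcr5 the 2 numbered libraries are the highest, in Cd79b by a narrow margin.

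Promoter sequences are shown for 3 of the called B-cell genes, since Pou2f2 is itself among them and its octamer can be looked for by its letters. RefSeq windows on GRCm38.p6, from 250 bases before to 50 bases after a start site, were matched for 22 of the 33 lower genes (28 windows). The windows were searched on both strands for the octamer ATGCAAAT, for GAGGAAGT as an Ets-type sequence and for TCCCNNGGG as an Ebf-type sequence. The octamer was present in 2 of the 28 windows (7.14%), those of Tlr9 and Ccr6, beside 570 of all 32851 windows (1.74%). GAGGAAGT was in 2 of 28 (7.14%, beside 3.20% of all windows) and TCCCNNGGG in 0 of 28 (beside 6.56%). Capitals below mark matches of these letters on either strand, lines run 5′ to 3′ along the gene, and the Fcrla window, which holds none, is given for comparison.
Tlr9 (chr9:106222348-106222647, plus strand): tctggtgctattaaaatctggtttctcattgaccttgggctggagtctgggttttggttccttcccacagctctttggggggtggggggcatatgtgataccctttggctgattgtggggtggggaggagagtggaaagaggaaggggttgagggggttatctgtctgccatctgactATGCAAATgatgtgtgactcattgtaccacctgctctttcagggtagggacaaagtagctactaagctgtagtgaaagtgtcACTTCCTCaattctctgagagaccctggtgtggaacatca
Ccr6 (chr17:8235793-8236092, plus strand): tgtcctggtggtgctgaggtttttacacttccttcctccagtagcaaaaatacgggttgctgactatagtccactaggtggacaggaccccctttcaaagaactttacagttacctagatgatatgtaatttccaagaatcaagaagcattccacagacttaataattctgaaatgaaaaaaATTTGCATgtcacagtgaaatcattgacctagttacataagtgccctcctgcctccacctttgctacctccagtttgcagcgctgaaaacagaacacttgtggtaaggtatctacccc
Fcrla (chr1:170927534-170927833, minus strand): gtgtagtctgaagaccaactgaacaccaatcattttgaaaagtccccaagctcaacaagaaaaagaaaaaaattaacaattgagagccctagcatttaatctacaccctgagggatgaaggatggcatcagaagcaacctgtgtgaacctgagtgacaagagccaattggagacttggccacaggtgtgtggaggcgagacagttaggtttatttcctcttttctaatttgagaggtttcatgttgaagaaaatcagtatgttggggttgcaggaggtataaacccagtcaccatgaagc
The octamer began 72 bases before the start of Tlr9 on the plus strand of the printed line. In the printed Ccr6 window it began 68 bases before the start, on the minus strand of the line. Another Ccr6 window, at a different start site (chr17:8242276-8242575), held no match of any of these sequences. In the 12 windows of 10 listed B-cell genes there was no octamer. These matches describe letters only, and whether a factor binds there was not measured.

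Antibody genes were lower in most long-term libraries but varied widely between mice. Among 20 genes of plasma cells and antibody constant regions, 17 were below 0 and 10 of these had an unadjusted p under 0.05, with a list median of -0.64 on the log2 scale, and 1 gene passed. That gene was Ighd, which encodes the heavy chain of IgD on naive B cells, at 116, 127, 82.2, 69.9 and 73.9 CPM in HDM and 49.5, 53.1, 52.0, 40.9 and 52.5 CPM in the long-term group. Its change was -0.92 (SE 0.16, adjusted p = 0.0493), and -0.60 without HDM replicates 1 and 2 (adjusted p = 0.0248). Igkc, the constant region of kappa light chains, was at 3014, 6188, 964, 2621 and 2412 CPM in HDM and 1074, 400.4, 1069, 1363 and 873 CPM in the long-term group. HDM replicate 3 lay within the long-term range, and the change of -1.67 (SE 0.46) did not pass (adjusted p = 0.119), though without that library the adjusted p was 0.0371. Ighe, the heavy chain of IgE, the antibody class of allergy, was at 83.5 CPM in HDM replicate 2, between 3.24 and 21.9 CPM in the other HDM libraries and between 0.223 and 9.96 CPM in the long-term group. Its change of -2.55 (SE 1.06, adjusted p = 0.253) became -0.93 without HDM replicates 1 and 2.

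All annotated immunoglobulin genes together took 0.879 ± 0.432% of counts in HDM and 0.391 ± 0.157% in the long-term group (n = 5 each). An exact two-sided permutation test of the group labels gave p = 0.0397, or 0.0992 after Benjamini-Hochberg adjustment over 5 such shares. Without HDM replicate 3, whose share of 0.322% was the lowest of its group, the adjusted exact p was 0.0198. Variable segments, the parts of antibody genes that differ between B-cell clones, showed the same spread. Of 151 tested, 118 lay below 0 with a median of -0.997, 47 were lower at an unadjusted p under 0.05, 5 did not overlap between groups on the lower side and 0 passed. Without HDM replicates 1 and 2 the median was -0.75. 

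Some genes of lymphoid follicles and of antigen presentation also had lower levels, and 1 of them passed. Of 11 tested follicle genes, 7 lay below 0 with a median of -0.36, 6 at an unadjusted p under 0.05, and Cxcr5 alone passed. Cr2, the complement receptor of B cells and follicular dendritic cells, was at 72.9 and 70.6 CPM in HDM replicates 1 and 2, between 32.2 and 38.4 CPM in the other HDM libraries and between 20.1 and 27.5 CPM in the long-term group. Its change was -1.05 (adjusted p = 0.078), and -0.54 without those libraries (adjusted p = 0.0379). Cxcl13, the chemokine that draws Cxcr5-bearing cells, and Ccl19, a chemokine of T-cell zones, had log2 fold changes of -0.58 and 0.67, and neither passed.

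Of 12 genes of MHC class II presentation none passed, 5 were lower at an unadjusted p under 0.05 and 4 did not overlap between groups, with a median of -0.24. These 4 were H2-Ob and H2-Oa, which form the H2-O inhibitor of peptide loading in B cells, at -0.45 and -0.47, together with H2-Eb2 at -0.72 and H2-DMb2 at -0.38. Cd74, the invariant chain of all antigen-presenting cells, had a log2 fold change of -0.19 and H2-Aa, a class II chain, of 0.04. B2m, the light chain of MHC class I, was at 5835 and 6044 CPM in HDM replicates 1 and 2, between 2668 and 2829 CPM in the other HDM libraries and between 1888 and 2677 CPM in the long-term group. Its change was -0.87 with these libraries and -0.31 without, and it passed in neither fit.

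T-cell and NK-cell genes showed smaller differences. Of 19 T-cell genes 16 lay below 0 with a median of -0.13, 5 were lower at an unadjusted p under 0.05 and none passed. Trac, the constant chain of the alpha-beta T-cell receptor, was at 24.8, 22.4, 20.8, 16.9 and 16.8 CPM in HDM and at 16.3, 13.6, 14.4, 10.3 and 15.3 CPM in the long-term group (log2 fold change -0.54, adjusted p = 0.0951). The groups lay apart by a narrow margin. Among 13 NK and cytotoxic genes Eomes passed. The median of that list was -0.23 with all libraries, 0.05 without HDM replicate 3 and -0.41 without HDM replicates 1 and 2, so its direction rested on single libraries. Eomes, a T-box factor of NK cells and memory T cells, was at 5.54, 4.03, 4.04, 3.66 and 4.55 CPM in HDM and at 2.29, 2.82, 2.28, 2.47 and 2.25 CPM in the long-term group, a change of -0.85 (SE 0.14, adjusted p = 0.0428). Foxp3 of regulatory T cells had a log2 fold change of -0.75 (adjusted p = 0.135), with overlapping groups, and -0.41 without HDM replicates 1 and 2. It had the lowest value among 12 regulatory T-cell and checkpoint genes, of which 6 lay above 0 and 6 below. The median of that list was 0.01, with 1 gene lower and 0 higher at an unadjusted p under 0.05, and none passed.

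Transcripts of the mitochondrial genome formed the other group that was lower. Mitochondrial genes together took 5.97%, 7.16%, 5.63%, 4.83% and 4.26% of counts in HDM replicates 1 to 5 and 2.97%, 3.48%, 3.39%, 2.87% and 2.97% in the long-term libraries. The groups were separate, with means of 5.57 ± 1.11% and 3.14 ± 0.277%. The exact two-sided permutation test gave p = 0.00794, the smallest that 5 against 5 can give, and 0.0397 after adjustment over 5 shares. Without HDM replicates 1 and 2 the difference was -1.77 percentage points rather than -2.43. The exact p was then 0.0179, the smallest that 3 against 5 libraries can give, and 0.0893 after adjustment over 5 shares. The groups remained separate without those libraries, at 4.26% or more against 3.48% or less. Without any one of the long-term libraries it lay between -2.37 and -2.52 with an adjusted exact p of 0.0794, and the groups again remained separate.

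Ribosomal RNAs of the mitochondrion carried much of this difference. They held a median of 3.37% of counts in HDM (2.93 to 4.39%) and 1.90% in the long-term group (1.70 to 2.27%), while mitochondrial protein-coding genes held 1.56% (1.33 to 2.76%) and 1.21% (1.08 to 1.26%). mt-Rnr1, the small-subunit RNA (ENSMUSG00000064337, GRCm38 chromosome M, 70 to 1024, plus strand), was at 4836, 5874, 7383, 5548 and 4681 CPM in HDM and at 1928, 3006, 2484, 1719 and 2252 CPM in the long-term group. Its log2 fold change was -1.31 (SE 0.17, adjusted p = 0.0218), and -1.37 without HDM replicates 1 and 2. mt-Rnr2, the large-subunit RNA, fell from 31719.8 ± 5968 to 16685 ± 1919 CPM (log2 fold change -0.93, adjusted p = 0.0352).

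All 9 tested genes of the mitochondrial genome lay below 0 at an unadjusted p under 0.05, with a median of -0.85, 7 of them without overlap. Messenger RNAs ranged from -0.67 for mt-Co1, a core subunit of complex IV, to -1.20 for mt-Nd5 of complex I, and none of them passed. Without HDM replicates 1 and 2 the list median was -0.43, and 6 of the 9 passed. The remaining 6 listed genes, among them mt-Co2, mt-Co3 and mt-Atp6, held at most 11 counts in any library and could not be tested, so the share covers only part of the mitochondrial transcripts. Why these genes are near 0 was not tested. The library kit removes ribosomal RNA, and the annotated 5.8S gene n-R5-8s1, looked up after its values were seen, was at 1.89 to 11.7 CPM in HDM and 1.36 to 2.91 CPM in the long-term group. The part of ribosomal RNA removal in the mitochondrial result was not tested.

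Nuclear genes of the same respiratory complexes differed in the other direction or little. Of 25 tested, 21 lay above 0 with a median of 0.12, 8 were higher and 1 lower at an unadjusted p under 0.05, and none passed. Ndufa2, a subunit of complex I, was the one whose groups did not overlap on the higher side (log2 fold change 0.36, adjusted p = 0.123).

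**Figure D3:**
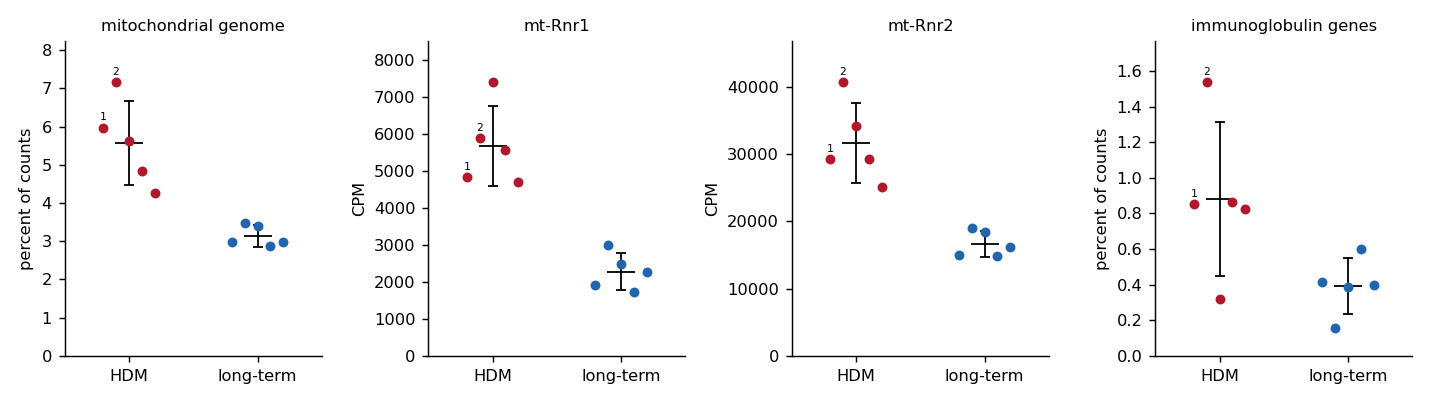
Share of counts in percent (first and last panel) and level in CPM (middle panels) by library, all from 0, for HDM (red) and long-term (blue), with mean and SD in black and HDM replicates 1 and 2 numbered. The mitochondrial share lies between 4.26 and 7.16% in HDM and between 2.87 and 3.48% in the long-term group, whereas the immunoglobulin shares overlap.

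Ccl28 changed most among the genes past the test. This chemokine of mucosal epithelium attracts IgA plasma cells and eosinophils that carry Ccr10 or Ccr3. It was at 2.65, 2.78, 1.24, 2.19 and 2.43 CPM in HDM and at 0.825, 0.419, 0.600, 0.472 and 0.766 CPM in the long-term group. HDM replicate 3 was the lowest HDM library but still above all long-term libraries. Ccl28 changed by -1.87 (log2 scale, SE 0.26, adjusted p = 0.0291), so that its level fell by 72.6%. Without HDM replicates 1 and 2, its highest libraries, the change was -1.66 (adjusted p = 0.0259). It passed in 1 of the 10 fits that left out a library.

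Most of the remaining genes that fell were on no list and differed by small amounts. Ywhag, a 14-3-3 adaptor of phosphorylated proteins, was at 150.4, 158, 139, 147 and 147 CPM in HDM and at 106, 108, 105, 112 and 111 CPM in the long-term group. The SD was 6.94 CPM in HDM and 3.20 CPM in the long-term group, and the change was -0.45 (SE 0.06, adjusted p = 0.0218). Similar patterns, with changes between -0.32 and -0.58, were seen in Nfatc1, a calcium-dependent factor of activated lymphocytes, Ube2l3, a ubiquitin-conjugating enzyme, Eif4ebp2, a repressor of cap-dependent translation, Rap2b, a Ras-family GTPase, Ubqln2, a proteasome shuttle, Pigt, which attaches GPI anchors, Tmed10, a carrier between ER and Golgi, Cherp, Lsm12, Plagl2, Myadm and B4galnt1. Cd33, a sialic acid-binding receptor of myeloid cells, changed by -0.47 (SE 0.07, adjusted p = 0.0352). Of the 36 called genes, 9 were on a gene list and 27 on none.

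Nfatc1 showed how even these differences were, at 103, 106, 100.04, 105 and 102 CPM in HDM and at 82.5, 85.5, 76.3, 73.5 and 80.1 CPM in the long-term group. The gap between the groups exceeded the spread within either, with a log2 fold change of -0.38 (SE 0.06, adjusted p = 0.0352). Eif4ebp2 was at 127, 130.1, 128, 135 and 129 CPM in HDM and at 103, 108, 87.1, 91.8 and 92.7 CPM in the long-term group (log2 fold change -0.43, SE 0.07, adjusted p = 0.0352). Neither gene had HDM replicates 1 and 2 set apart from the other HDM libraries. B4galnt1, a transferase of ganglioside synthesis, was at 156 to 198 CPM in HDM and 119.7 to 141 CPM in the long-term group, with its 2 highest values in HDM replicates 1 and 2.

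Another 5 called genes that fell lay outside the naming rule and were chosen after their values were seen. Zfp36l1, which speeds decay of AU-rich messenger RNAs, was at 267, 258, 211, 217 and 204 CPM in HDM and 164, 177, 164, 156 and 147 CPM in the long-term group (log2 fold change -0.52, adjusted p = 0.048). Ccni, a cyclin, had -0.49, as had Apbb1ip, an adaptor of integrin activation in leukocytes. In Zfp36l1, Ccni, Apbb1ip and BC048403, HDM replicates 1 and 2 held the 2 highest levels. BC048403 was at 9.29 to 10.5 CPM in HDM and 5.92 to 6.75 CPM in the long-term group, with a log2 fold change of -0.63 (adjusted p = 0.0291). Gm13340, annotated as an unprocessed pseudogene, had the second largest decrease among the called genes (log2 fold change -1.79, SE 0.32, adjusted p = 0.0493). It was at 5.98 CPM in HDM replicate 1, 2.09 to 2.79 CPM in the other HDM libraries and 0.627 to 1.38 CPM in the long-term group.

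Few genes rose. Aldh1a3 (ENSMUSG00000015134, GRCm38 chromosome 7, 66390890 to 66427517, minus strand), an enzyme that makes retinoic acid, was at 2.28, 2.92, 2.28, 2.19 and 3.04 CPM in HDM and at 4.64, 3.66, 5.04, 5.47 and 5.46 CPM in the long-term group. Every long-term library exceeded every HDM library, and the change was 0.93 (SE 0.16, adjusted p = 0.041), or a level higher by 90.4%. Sgcd, delta-sarcoglycan of the muscle membrane complex, was at 6.15 to 7.51 CPM in HDM and 9.58 to 10.8 CPM in the long-term group (log2 fold change 0.52, SE 0.09, adjusted p = 0.0493). Gm12940, an annotated transcript without a known role, was named after its values were seen and changed by 0.81 (adjusted p = 0.041).

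Contractile genes of smooth muscle were among those just short of the test. Tagln, the actin-binding protein transgelin, was at 84.0, 71.8, 99.1, 107 and 91.3 CPM in HDM and at 139, 126, 131, 131 and 128 CPM in the long-term group. The groups did not overlap, and the change of 0.53 (SE 0.10) had an adjusted p of 0.0504. Tpm2, a tropomyosin, had a log2 fold change of 0.43 (adjusted p = 0.0532) and Myl9, a regulatory myosin light chain, 0.41 (adjusted p = 0.0868), both also without overlap. Of 13 smooth muscle genes 10 lay above 0 with a median of 0.19, 6 were higher at an unadjusted p under 0.05 and none passed, while 2 passed without HDM replicates 1 and 2. Acta2, smooth muscle actin itself, had a log2 fold change of 0.19 (adjusted p = 0.305), and the summed CPM of the list overlapped between groups, from 1720 to 2115 in HDM and from 1945 to 2282 in the long-term group.

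Other genes of smallest p on the higher side were of varied kinds, and none passed. C1s1, a protease that starts the classical complement pathway, was at 171 to 182 CPM in HDM and 202 to 251 CPM in the long-term group (log2 fold change 0.37, adjusted p = 0.051). Fbp1, an enzyme of gluconeogenesis, was at 9.81 to 17.2 CPM in HDM and 19.9 to 41.8 CPM in the long-term group, a change of 1.10 (SE 0.20, adjusted p = 0.0549). Hist1h3b, a replication-dependent histone, had 0.71 (adjusted p = 0.0566), and Dync2h1, a retrograde motor of cilia, had 0.36 (adjusted p = 0.064). Of 15 complement genes 11 lay above 0 with a median of 0.21 and 4 were higher at an unadjusted p under 0.05. C3ar1, the receptor for C3a on myeloid cells, had the opposite sign at -0.74 (adjusted p = 0.0786), with HDM replicate 3 inside the long-term range and an adjusted p of 0.00646 without it.

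Circadian clock genes lay on both sides of 0, and none passed the test over all genes. The Per and Cry genes encode repressors of the Arntl-Clock pair, and Dbp, Tef and Ciart are driven by that pair. Of 19 tested, 8 were higher at an unadjusted p under 0.05 (among them Per1, Per2, Per3, Cry1, Dbp, Tef and Ciart, from 0.32 to 0.79), where 7.91% of all genes were. Another 5 were lower (Arntl, Clock, Npas2, Nr1d1 and Bhlhe41, from -0.25 to -0.75), where 10% of all genes were. Per3 was at 55.3, 67.1, 89.2, 77.8 and 69.4 CPM in HDM and at 93.8, 121, 100.4, 107 and 105 CPM in the long-term group (log2 fold change 0.56, SE 0.12, adjusted p = 0.0638). HDM replicates 1 and 2 were its lowest libraries, and without them its change was 0.42 (adjusted p = 0.0482). Bhlhe41, a further repressor, was at 25.6 to 52.5 CPM in HDM and 19.3 to 24.0 CPM in the long-term group (log2 fold change -0.75, adjusted p = 0.0733). No label gives the time of day at which lungs were taken.

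**Figure D4:**
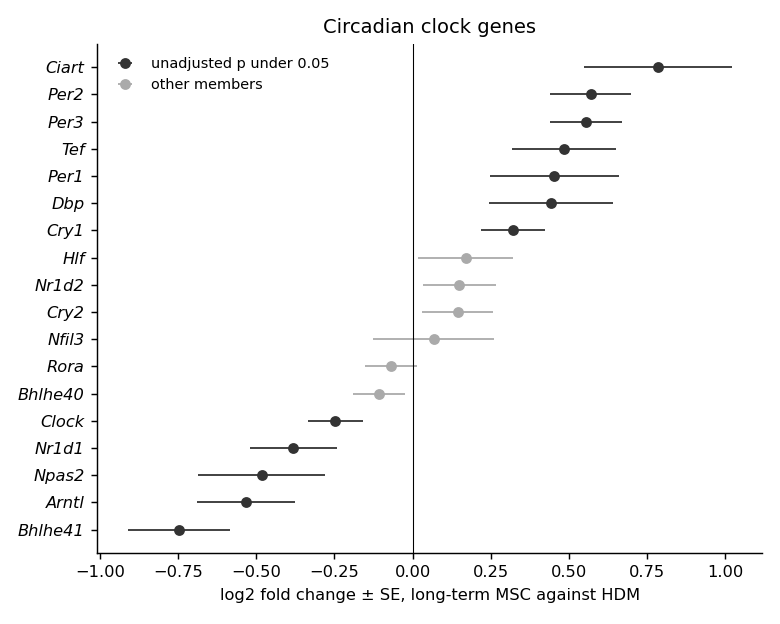
Log2 fold change ± SE (x axis) of the long-term group against HDM for 18 circadian clock genes (y axis), dark where the unadjusted p was under 0.05. Per, Dbp, Tef and Ciart lie on the right, up to 0.79, and Arntl, Npas2, Nr1d1 and Bhlhe41 on the left, down to -0.75.

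Interferon-stimulated genes tended to higher values. Of 20 tested, 17 lay above 0 with a median of 0.25, 8 were higher and 0 lower at an unadjusted p under 0.05, and none passed. Mx2, a gene of the antiviral Mx GTPases, is annotated as a polymorphic pseudogene. It was at 2.82, 2.23, 3.73, 3.66 and 3.04 CPM in HDM. In the long-term group it was at 3.94, 5.25, 6.45, 3.83 and 6.92 CPM (log2 fold change 0.77, SE 0.20, adjusted p = 0.0953). The groups were separated by a small gap. Ifit3, which binds viral RNA, had 0.68 (adjusted p = 0.0877) and Irf7, a factor that drives interferon genes, 0.53, both with an overlap between groups. Without HDM replicates 1 and 2 the list median was 0.28.

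Type 2 inflammation, the feature of HDM-driven asthma, gave no gene past the test. Il4 was at 0.724 to 3.20 CPM in HDM and 1.23 to 1.99 CPM in the long-term group, Il5 at 0.294 to 0.584 and 0.255 to 0.855 CPM, and Il13 at 0.207 to 1.66 and 0.630 to 1.25 CPM. These cytokines drive IgE switching, eosinophils and mucus, and their log2 fold changes were 0.06 (SE 0.32), 0.19 (SE 0.36) and 0.17 (SE 0.40). The SEs are too wide to show a change of 1.5-fold in them. The mucin Muc5ac was at 45.7 to 146 CPM in HDM and 28.2 to 219 CPM in the long-term group (log2 fold change 0.06, SE 0.51). Chil3, a chitinase-like protein of activated macrophages, and Retnla, a resistin-like protein of the same response, differed by 0.01 (SE 0.18) and -0.02 (SE 0.19). The eosinophil chemokines Ccl11 and Ccl24 had log2 fold changes of 0.05 and -0.20, and the alarmin Il33 had -0.27 (SE 0.15, adjusted p = 0.374).

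Some myeloid and inflammatory genes were lower without passing. Csf2, the growth factor GM-CSF, was at 27.1, 26.6, 14.6, 10.9 and 11.2 CPM in HDM and at 8.06, 8.27, 9.31, 8.27 and 8.96 CPM in the long-term group. The groups did not overlap, and the change was -1.08 (SE 0.25, adjusted p = 0.0783) with HDM replicates 1 and 2, its highest libraries, and -0.51 without them (adjusted p = 0.0482). Lcn2, an iron-binding protein of neutrophils and epithelium, was at 1305 to 1916 CPM in HDM and 918 to 1259.5 CPM in the long-term group (log2 fold change -0.54, adjusted p = 0.078). Of 13 neutrophil genes 6 lay above 0 and 7 below with a median of -0.03, 5 were lower and 1 higher at an unadjusted p under 0.05, and none passed. The summed CPM of that list was 1525 to 2157 in HDM and 1157 to 1500 in the long-term group, without overlap. Lcn2 made up most of this sum in every library, so the separation describes Lcn2 rather than the list. The granule genes Camp (1.24) and Ngp (1.05) stood against Stfa2l1 (-1.14) and Retnlg (-0.57), and S100a8 had 0.14. Mmp12, the elastase of macrophages, varied from 345 to 2189 CPM in HDM and from 519 to 1002 CPM in the long-term group, with a change of -0.83 (SE 0.40, adjusted p = 0.302) and of -0.36 without HDM replicates 1 and 2. HDM replicate 3 was the lowest library, and without it the adjusted p was 0.0321.

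Adhesion molecules of leukocytes had a median of -0.26 over 12 genes (-0.12 without HDM replicates 1 and 2), with 5 lower and 1 higher at an unadjusted p under 0.05. Selplg, the leukocyte ligand of selectins, had a log2 fold change of -0.32 (adjusted p = 0.105) without overlap. Sele, the E-selectin of activated endothelium, was at 1.97 to 3.23 CPM in HDM and 2.32 to 6.57 CPM in the long-term group (log2 fold change 0.97, adjusted p = 0.0941).

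Structural genes differed little. Of 19 genes of fibroblasts and matrix, 13 lay above 0 with a median of 0.10, 3 were higher at an unadjusted p under 0.05 and none passed. Col1a1, the main chain of type I collagen, was at 605 ± 123 CPM in HDM and 603 ± 170.0 CPM in the long-term group (SD, n = 5 each), and Col3a1 had a log2 fold change of 0.35 (SE 0.15, adjusted p = 0.231). Eln, which encodes elastin, was at 933, 1857, 483, 1546 and 1429 CPM in HDM and at 1308, 908, 755, 1094 and 519 CPM in the long-term group, with a change of -0.45 (SE 0.34, adjusted p = 0.518). HDM replicate 3 was the lowest of all 10 libraries. Tgfb1, the growth factor of fibrosis, had -0.35 (adjusted p = 0.185), and -0.52 without HDM replicates 1 and 2 (adjusted p = 0.0482).

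Genes by which MSCs are recognised or thought to act showed no called change. Among 14 stromal and MSC surface genes, 3 were higher and 2 lower at an unadjusted p under 0.05 with a median of 0.06. Nt5e, the ecto-nucleotidase CD73 that marks MSCs and many lung cells, was at 94.1, 100.3, 111, 112 and 97.7 CPM in HDM and at 114, 126, 133, 136 and 119 CPM in the long-term group (log2 fold change 0.29, adjusted p = 0.0946). Among 20 mediators ascribed to MSCs, 2 were higher and 5 lower at an unadjusted p under 0.05 with a median of 0.04. These transcripts are made by lung cells as well, so they give no count of MSCs that remained.

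Ciliated-cell genes lay mostly above 0, and with all libraries the medians of the type 2 alveolar, goblet and club-cell lists were closer to it. Of 16 ciliated-cell genes 14 were above 0 with a median of 0.21 and 5 at an unadjusted p under 0.05, among them Tekt1 of the cilium shaft (0.47, adjusted p = 0.148) and the dynein Dnah9 (0.36, adjusted p = 0.162). Surfactant and type 2 alveolar genes had a median of -0.10 over 16, goblet genes 0.09 over 14 and club-cell genes 0.09 over 11, and no gene of these lists passed. These medians were -0.23, 0.24 and -0.04 without HDM replicates 1 and 2, and that of ciliated-cell genes was 0.19. Without long-term replicate 1 the goblet median was -0.13, and without HDM replicate 5 the club-cell median was -0.02. Sftpb, a surfactant protein, was at 1616 to 1696 CPM in HDM and 1215 to 1591 CPM in the long-term group (log2 fold change -0.26, adjusted p = 0.146). Cell-cycle genes had a median of 0.08 with all libraries and 0.32 without HDM replicates 1 and 2, in which Mki67, a marker of dividing cells, was highest at 344 and 436 CPM.

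Among other growth and translation genes, Myc, a factor of cell growth, was at 18.6, 18.1, 17.0, 19.0 and 20.7 CPM in HDM and at 14.2, 14.1, 14.5, 14.5 and 13.6 CPM in the long-term group. The groups were well apart and tight, yet the log2 fold change of -0.40 (SE 0.08) had an adjusted p of 0.0566, and of 0.0337 without HDM replicates 1 and 2. Rplp2, a protein of the ribosomal stalk, lay on the other side, at 150.0 to 192 CPM in HDM and 207 to 255 CPM in the long-term group (log2 fold change 0.39, adjusted p = 0.0642). Cytosolic ribosomal protein genes as a list had a median of 0.09 over 34 (-0.03 without HDM replicates 1 and 2), with 5 higher and 3 lower at an unadjusted p under 0.05.

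Mast cell and eosinophil genes gave no gene past the test. Of 8 mast cell and basophil genes tested 7 lay below 0 with a median of -0.19, and Cpa3, a mast cell protease, had -0.78 (adjusted p = 0.172). Among 11 eosinophil genes the median was -0.20, but it was 0.13 without HDM replicate 5 and 0.02 without long-term replicate 3, and the direction of this list turned with them. Ccr3, the eotaxin receptor, and Il5ra, the receptor for IL-5, both had -0.48, while Prg3, a granule protein, had 1.24, and all overlapped between groups. Il2rg, the receptor chain shared by IL-4, IL-7 and other cytokines, was at 37.1, 40.6, 25.4, 25.2 and 29.1 CPM in HDM and at 23.3, 21.4, 23.6, 16.5 and 21.9 CPM in the long-term group (log2 fold change -0.56, adjusted p = 0.0946). The gap was narrow and HDM replicates 1 and 2 were highest.

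Macrophage lists were centred near 0, with medians of 0.00 over 16 monocyte and interstitial macrophage genes and 0.02 over 16 alveolar macrophage genes. Ms4a7 of interstitial macrophages was at 32.5, 28.3, 16.8, 25.9 and 29.0 CPM in HDM and at 17.4, 16, 17.8, 18.9 and 15.6 CPM in the long-term group. HDM replicate 3 lay with the long-term libraries; the log2 fold change was -0.63 (adjusted p = 0.078), and the adjusted p was 0.00626 without that library. Angptl4, an inhibitor of lipoprotein lipase, was at 18.4 to 26.7 CPM in HDM and 11.8 to 17.9 CPM in the long-term group (log2 fold change -0.60, adjusted p = 0.0733). Lists of vascular endothelium, the TGF-beta axis and the hypoxia response had medians between -0.04 and 0.08, and no member passed. Medians this near 0 took either sign when libraries were left out, apart from that of the TGF-beta list.

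**Figure D5:**
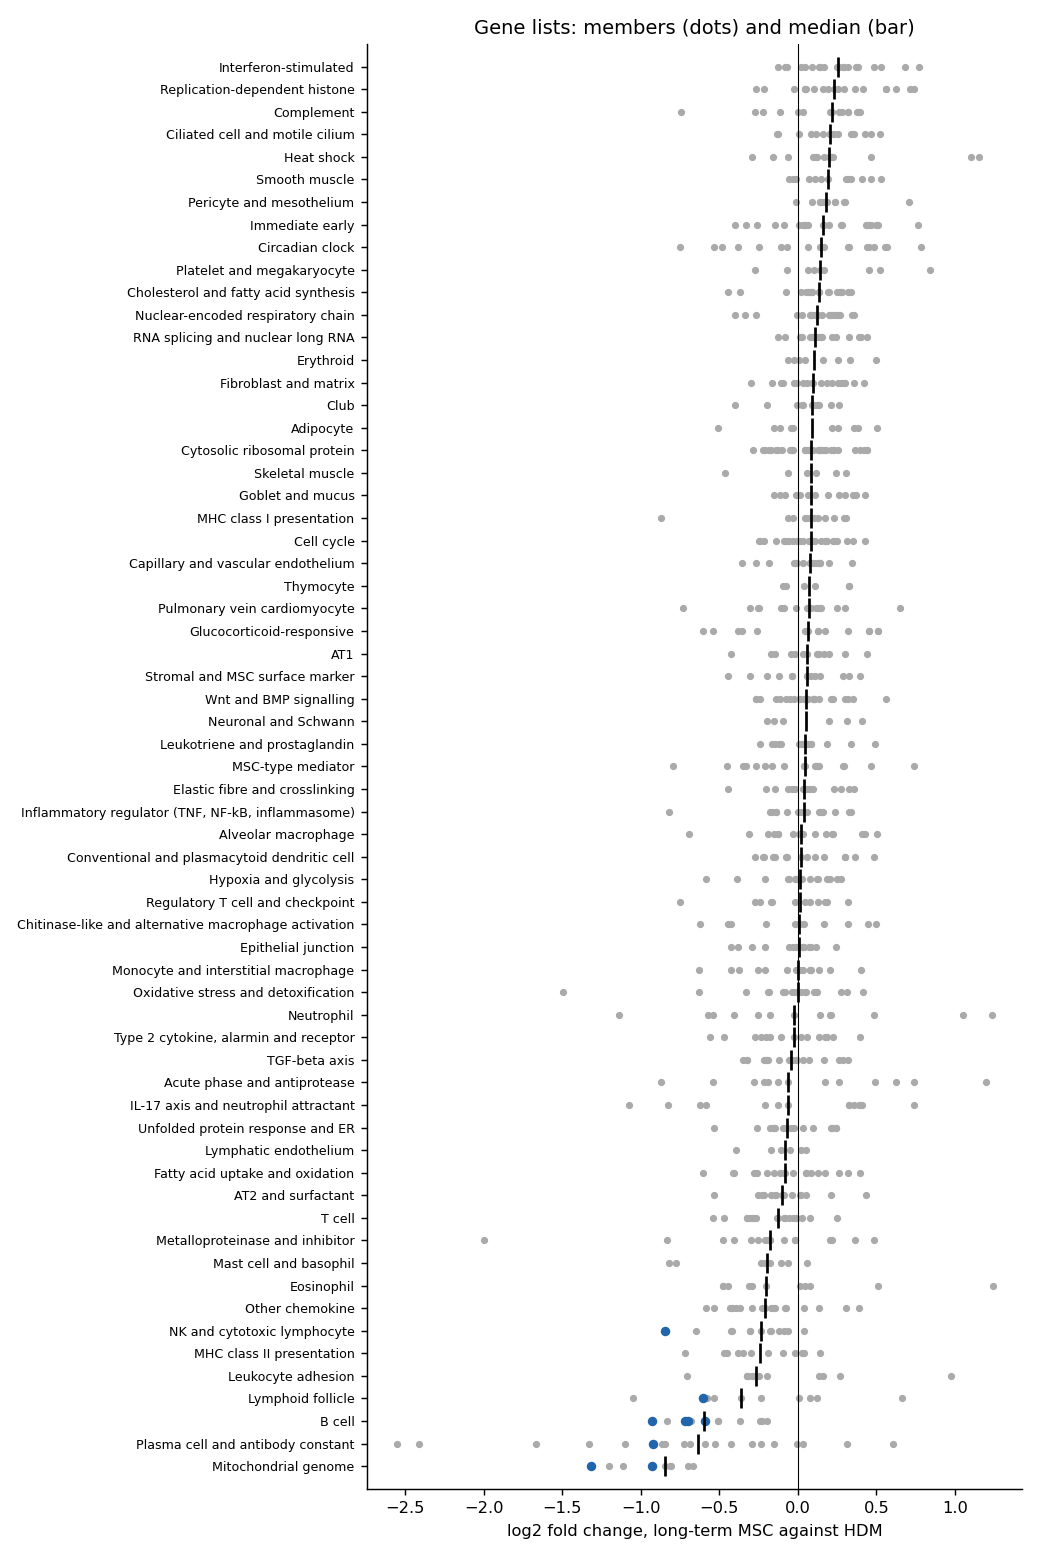
Log2 fold change (x axis) of each tested member (dots, blue where past an adjusted p of 0.05) and their median (black bar) for the gene lists with at least 5 tested members (y axis), sorted by median. Mitochondrial, antibody and B-cell lists lie at the bottom with medians of -0.85, -0.64 and -0.60, and interferon-stimulated genes on top at 0.25.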

How the data were processed

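Per the labels, lung lobes were kept in RNAlater, RNA with an integrity number over 8 was used, and libraries were made with a TruSeq stranded total RNA kit. Reads were aligned to GRCm38 with STAR 2.5.3a, per the submitters' processing notes. The deposited table holds raw read counts per gene, not normalised by the authors, for 55421 Ensembl gene IDs. How reads were counted, with or without strand and on which annotation, is not stated, so overlapping or antisense genes may share reads. Symbols and coordinates come from GENCODE M21 and matched 55240 IDs.

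Genes were filtered with filterByExpr, scaled by TMM and tested with edgeR 4.0.16 (quasi-likelihood, robust, in R 4.3.3) on the 10 libraries alone, two-sided, with p adjusted by Benjamini-Hochberg over 18968 genes and called at an adjusted p under 0.05. Adjusted p-values in the text come from this test unless named otherwise. CPM values are TMM-scaled, and log2 fold changes are long-term minus HDM. SE is the standard error of the log2 fold change. Shares of counts were compared by an exact permutation test. Total counts ranged from 29635897 to 44201637 per library. Alternatives used other scalings and filters, limma 3.58.1 (voom), DESeq2 1.42.0, sva 3.50.0, more libraries and libraries left out. The fit was tested on simulated data. Figures were drawn with matplotlib 3.10.9.

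Genes were named by rule: called genes averaging 1 CPM or more, without predicted genes, pseudogenes and variable segments (the 15 highest and 15 lowest changes), genes of smallest p up to 12 per direction, up to 3 members of each of 64 lists (the smallest p and the highest mean), and a panel of asthma genes. Other list members named were chosen after their values were seen. The comparison, lists and panel were chosen with earlier results of these data known. Replicates are numbered in accession order, and the numbers pair no libraries. A few genes of the lists are not reported here by name.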

Additional observations from a re-analysis of the deposited data

Results flagged for a closer look

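In groups of 5 libraries, the gap of the highest or lowest library to its nearest neighbour was set against Dixon's critical value of 0.71 of the range. Of 438 such tests on named genes, shares and totals, 16 passed it, where chance gives about 1 in 20. HDM replicate 2 held 5 of them: the highest total count (44201637, others 29635897 to 33027513), Ighe at 83.5 CPM (others 3.24 to 21.9), the vascular receptor Aplnr at 89.3 CPM (others 58.5 to 67.3), and low values of Selplg at 111 CPM (others 126 to 131) and of the cytokine Il17a at 0.671 CPM (others 1.47 to 1.78). HDM replicate 1 was high in Mylk, the myosin light chain kinase of smooth muscle, at 675 CPM (others 543 to 560.1). HDM replicate 4 was low in Dync2h1 at 46.6 CPM.

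Long-term replicate 3 stood out in 4 genes: Ptgis, the prostacyclin synthase, at 43.2 CPM, Hopx of type 1 alveolar cells at 252.2 CPM, Cdh1, epithelial cadherin, at 304 CPM on the low side, and the fatty acid receptor Cd36 at 811 CPM. Long-term replicate 1 was low in Mettl6 at 24.5 CPM and high in Tnni2, a troponin, at 3.79 CPM. Long-term replicate 2 was low in Alox15, a lipoxygenase, at 53.5 CPM and in the ribosomal protein share at 1.63% (others 1.83 to 1.90%). Long-term replicate 4 was low in Rap2b at 18.8 CPM (others 20.8 to 21.3), in the direction of its call. Among the called genes named, only Rap2b was flagged.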

How the results depend on the processing

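No paired analysis was possible because the labels give the mice no replicate numbers shared between groups. The 36 called genes kept their direction under all 22 alternatives, but their number moved. With 36 called (3 higher, 33 lower) in the comparison as reported, upper-quartile scaling gave 8 (0 higher, 8 lower), no filter on low counts 80 (16 and 64), DESeq2 1056 (304 and 752), limma voom with quality weights 319 (59 and 260), all 15 libraries 19 (1 and 18), 14 libraries without the late-MSC library that stood apart 433 (95 and 338), 1 surrogate variable 790 (260 and 530), and leaving out HDM replicates 1 and 2 gave 279 (56 and 223). RLE scaling gave 35 (2 higher), a filter at 1 CPM 40 (4 higher) and no robust shrinkage 30 (2 higher). Testing against a fold change of at least 1.5 with edgeR left 0, with 180 genes at an unadjusted p under 0.05; DESeq2 was not run against that fold. Leaving out 1 library gave 0 to 598 calls, 0 to 125 higher and 0 to 473 lower; where it gave 0 with edgeR, 2650 to 3643 genes had an unadjusted p under 0.05. All 36 genes passed with DESeq2, voom, 14 libraries, 1 surrogate variable, without HDM replicate 3 and without HDM replicates 1 and 2. With all 15 libraries 17 of the 36 passed, and with upper-quartile scaling 8 did. Cd79b was among those that did not pass with all 15 libraries (edgeR adjusted p = 0.131). The mitochondrial share differed by -2.76 to -2.04 percentage points without 1 library, with an adjusted exact p of 0.0794 without any one long-term library. It differed by -1.77 without HDM replicates 1 and 2, where the adjusted exact p was 0.0893. The groups stayed separate in each. The immunoglobulin share differed by -0.628 to -0.324 points without 1 library. Of the fold changes of named genes under alternatives, 4036 stayed on their side of the threshold, 334 lost and 206 gained a call, and 106, of 33 genes that were not called, changed sign. Of 1408 list medians, 11 moved by more than the spread between libraries and 113, of 34 lists, changed sign; the medians of 28 of these lists lay within 0.1 of 0 with all libraries. No called gene changed sign. The causes were not tested. Il5 and Il13, near 1 CPM, had wide SEs, and the part of depth in this was not tested.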

Other observations

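Single libraries set the widest differences of the whole comparison, all in antibody variable segments and none past the test. Igkv1-122 had a log2 fold change of 5.62, with 66.3 CPM in long-term replicate 3. Ighv15-2 and Ighv1-63 had -5.82 and -5.70. Each of these segments was abundant in few mice. Clones of B cells were not measured.

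Nuclear long RNAs and splicing genes lay mostly above 0, 19 of 21, with a median of 0.11 and 6 higher at an unadjusted p under 0.05, where 7.91% of all genes were. Neat1, a scaffold RNA of paraspeckles, had 0.40 and Malat1, a nuclear speckle RNA, 0.33. Replication-dependent histones had a median of 0.23 over 19 genes, with 4 higher at an unadjusted p under 0.05. Heat shock genes had a median of 0.20 over 15, led by inducible chaperones such as Hspa1b at 1.10. Pericyte and mesothelial genes lay above 0 in 11 of 12, with Higd1b, a pericyte marker, at 0.71 and a median of 0.18. Without HDM replicates 1 and 2 the medians were 0.27 for nuclear and splicing RNAs, 0.07 for histones, 0.20 for heat shock genes and -0.06 for pericyte and mesothelial genes, whose direction thus turned. No gene of these lists passed.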
